A study of Mus musculus with 17 samples.

Results

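The 10 genes described here supply glycerol 3-phosphate and build triglyceride from it in mouse brown fat. They were chosen by symbol from a fixed list of glycerol kinase, glyceroneogenesis and acyltransferase steps, and all 10 (Gk, Aqp7, Pck1, Gpd1, Gpd2, Gpam, Agpat2, Lpin1, Dgat1 and Dgat2) were found among the 21982 genes of the count table. All 10 passed the filter on low counts, which left 12486 genes for testing. No measured value entered the choice. On GRCm38 they lie on chromosomes X (Gk), 4 (Aqp7), 2 (Pck1, Gpd2 and Agpat2), 15 (Gpd1 and Dgat1), 19 (Gpam), 12 (Lpin1) and 7 (Dgat2).

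Triglyceride is assembled on a glycerol 3-phosphate backbone. The backbone is formed by phosphorylation of glycerol, by reduction of dihydroxyacetone phosphate from glycolysis, or from pyruvate through glyceroneogenesis. Acyltransferases of the endoplasmic reticulum and the outer mitochondrial membrane then add fatty acids in sequence, with removal of the phosphate before the last acylation. Brown adipocytes break down and rebuild triglyceride at the same time during heat production, and brown fat is known for a high glycerol kinase activity compared with white fat.

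Messenger RNA was sequenced from brown adipose tissue of 17 mice on a C57BL/6 background, 1 library per mouse. Wild types (labelled Noc+/+) and littermates without Nocturnin (Noct, a clock-controlled phosphatase of NADP(H)), labelled Noc-/-, spent 4 h at 22 °C or 6 °C, and all groups were housed singly and without food for that time. There were 4 wild types at 22 °C (3 female, 1 male, labelled age 11.14 to 23.57), 5 wild types at 6 °C (4 female, 1 male, 11.14 to 23), 4 knockouts at 22 °C (1 female, 3 male, 11.14 to 23.57) and 4 knockouts at 6 °C (1 female, 3 male, 11.14 to 17). The age labels carry no unit and reach 23.57, whereas the series text states 10 to 20 weeks. Neither the removed part of Noct nor the cells that lack it are named in the labels.

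Library totals ran from 18410748 to 47598200 counts. The lowest count of any of the 10 genes in a library was 1669 (Aqp7), so counting error was small beside the spread between animals. Mitochondrially encoded genes took 43.4 to 57.3% of the counts, and 2 libraries, knockout replicate 4 at 22 °C (57.3%) and knockout replicate 3 at 6 °C (57.0%), lay above the other 15, which reached at most 52.2%. Noct was at 3.37 to 34.2 CPM (counts scaled to library size) in knockouts and at 91.5 to 457 CPM in wild types, without overlap. Brown adipocyte markers summed to 4893 to 9388 CPM, of which Ucp1 made up 3684 to 7847 CPM, whereas 8 white adipocyte markers summed to 18.5 to 56.7 CPM, with Hoxc10 at 0 in every library. Skeletal muscle markers varied within every group, from 21.5 to 999 CPM in all. In bulk tissue, fewer cells of a type and less RNA per cell cannot be told apart.

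In wild types, 2 of the 10 genes, Gk and Gpam, rose after 4 h at 6 °C, and 1, Dgat2, fell. The test was edgeR's quasi-likelihood test, and "rose" and "fell" mean an adjusted p below 0.05 over all 12486 tested genes. Among those genes 14.3% rose and 13.3% fell, 27.6% in all, so a count of 3 of 10 was close to the share of all genes. The median log2 fold change of the 10 genes was 0.09, against -0.03 over all tested genes. In knockouts, Gk, Gpam and Dgat1 rose and Dgat2 fell, a count of 4 of 10 where 21.6% of all tested genes were called, 11.6% as higher and 10.0% as lower. The median was 0.04 for the 10 genes and -0.02 for all tested genes. Warm and cold animals did not overlap for 3 of the 10 genes, Gk, Gpam and Dgat2, in each genotype, where 25.8% of all tested genes did not overlap in wild types and 20.2% in knockouts.

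**Figure D1:**
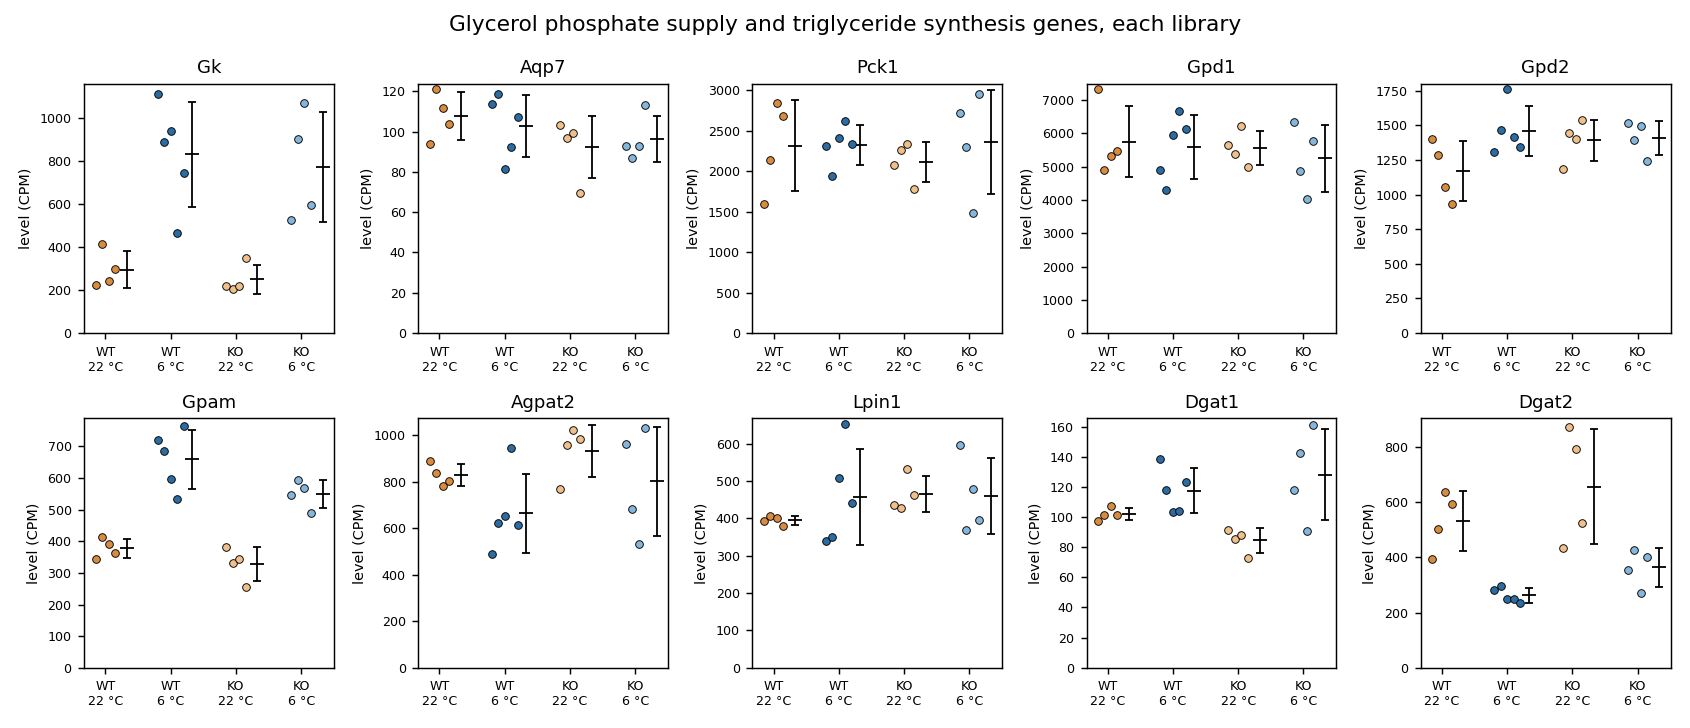
Levels of the 10 genes in each library, in CPM on scaled library sizes, with wild type (WT) and Noct knockout (KO) at 22 °C and 6 °C on the horizontal axis. Points are animals and bars are mean ± SD. Gk and Gpam sit higher and Dgat2 lower at 6 °C in both genotypes with no overlap between temperatures, where 25.8% of all tested genes did not overlap in wild types and 20.2% in knockouts.

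Glycerol enters the pathway through the water and glycerol channel aquaporin 7, encoded by Aqp7, and through glycerol kinase, encoded by Gk, which phosphorylates glycerol to glycerol 3-phosphate. Gk was the member with the largest rise in the cold. Its level was 222, 414, 241 and 298 CPM in wild types at 22 °C and 1111, 888, 939, 463 and 743 CPM in wild types at 6 °C. All 5 cold animals lay above all 4 warm ones, with the lowest cold animal (replicate 4) only a little above the highest warm one (replicate 2). The fitted rise was 1.55 ± 0.24 on the log2 scale (SE), a 2.93-fold rise with a 95% interval of 1.04 to 2.06 on the log2 scale (adjusted p = 0.000247, n = 4 and 5, edgeR).

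Knockouts had Gk at 220, 207, 217 and 350 CPM at 22 °C and at 524, 902, 1066 and 592 CPM at 6 °C. Again the temperatures did not overlap, and replicate 4 stood above the other 3 warm knockouts. The rise was 1.61 ± 0.25 on the log2 scale, or 3.05-fold (adjusted p = 0.000304, n = 4 and 4, edgeR). Without the 2 libraries of highest mitochondrial share it was 1.62 (adjusted p = 0.00123), and without wild-type replicate 2 at 22 °C the wild-type rise was 1.65 (adjusted p = 0.000571). Gk varied more between animals of a group than most of the other genes, with a coefficient of variation of 27.2 to 33.3% across the groups.

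Gk lies on the minus strand of chromosome X (GRCm38, 85701937 to 85776819), and sex was unequal between the genotypes. The sex term of the model, male minus female, was 0.44 on the log2 scale for Gk (unadjusted p = 0.0404, adjusted p = 0.888, edgeR). It did not pass over all tested genes, which does not show that Gk was equal between the sexes. The rise remained past the threshold when only the majority sex of each genotype was used, at 1.68 in wild-type females and 1.73 in knockout males (adjusted p = 0.00151 and 0.00257). The testis-expressed relatives Gk2 and Gykl1 had 7 and 0 counts over all 17 libraries. An antisense gene, Gm14764, shares 84 bases of exon with Gk, 1.08% of the exon bases of Gk, and no label or note states whether counting used strand.

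The promoter of Gk is shown because Gk had the largest cold response of the 10 genes. The 250 bases before its start site, chrX:85776820-85777069 on the minus strand, from RefSeq on GRCm38.p6, read 5′ to 3′ with motif matches in capitals.
Gk: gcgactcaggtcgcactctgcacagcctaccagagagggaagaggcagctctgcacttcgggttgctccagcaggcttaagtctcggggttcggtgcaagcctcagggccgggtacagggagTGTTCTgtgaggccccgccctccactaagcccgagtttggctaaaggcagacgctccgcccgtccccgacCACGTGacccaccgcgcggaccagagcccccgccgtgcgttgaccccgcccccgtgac
The capitals mark TGTTCT, which is AGAACA on the other strand and the core of the glucocorticoid response element, at 128 to 123 bases before the start, and CACGTG, the E-box bound by clock and other helix-loop-helix factors, at 58 to 53 bases before it. The search covered both strands for those 2 motifs, for the cAMP response element TGACGTCA and its core TGACG (which overlap), and for the PPAR element, a direct repeat of AGGTCA with 1 base between. Windows of the same length held AGAACA in 16.1% and CACGTG in 6.02% of 32851 RefSeq promoters. These matches describe the letters of the window only.

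Aqp7 is the channel through which adipocytes pass glycerol. It was at 93.7, 121, 112 and 104 CPM in warm wild types and at 114, 119, 81.3, 92.4 and 107 CPM in cold ones. The groups overlapped almost fully, and the fitted difference was -0.07 ± 0.14 on the log2 scale (95% interval -0.35 to 0.22). In knockouts the levels were 69.5 to 103 CPM at 22 °C and 87.0 to 113 CPM at 6 °C, with a difference of 0.06 ± 0.14 (-0.24 to 0.36). Both intervals lie below the rise measured for Gk.

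The other routes to glycerol 3-phosphate had no called change in either genotype. Pck1 encodes the cytosolic phosphoenolpyruvate carboxykinase, the regulated enzyme of glyceroneogenesis. Warm wild types had Pck1 at 1598, 2141, 2844 and 2680 CPM and cold ones at 2308, 1938, 2405, 2624 and 2334 CPM. The cold animals fell inside the range of the warm ones, and the difference was -0.01 ± 0.18 (95% interval -0.38 to 0.37). Knockouts spanned 1776 to 2339 CPM at 22 °C and 1488 to 2947 CPM at 6 °C, a difference of 0.16 ± 0.19 (-0.24 to 0.55).

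Gpd1 encodes the cytosolic glycerol 3-phosphate dehydrogenase, which reduces dihydroxyacetone phosphate to glycerol 3-phosphate. It had 4895 to 7333 CPM (median 5399) in warm wild types and 4311 to 6664 CPM (median 5962) in cold ones. The difference was -0.06 ± 0.14 in wild types and -0.10 ± 0.14 in knockouts, where the levels were 5006 to 6235 CPM at 22 °C and 4034 to 6345 CPM at 6 °C. An antisense gene, Gm16537, shares 384 exon bases with Gpd1, 13% of the exon bases of Gpd1. Gpd2 encodes the mitochondrial glycerol 3-phosphate dehydrogenase, which oxidizes glycerol 3-phosphate back and passes the electrons to the respiratory chain.

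Warm wild types had Gpd2 at 1403, 1287, 1057 and 933 CPM and cold ones at 1311, 1466, 1760, 1412 and 1344 CPM. The cold group was higher on average and overlapped the warm group through warm replicate 1. The difference of 0.32 ± 0.13 (95% interval 0.06 to 0.59) did not pass with edgeR (adjusted p = 0.0673). It passed with the Wald test of DESeq2 (0.33, adjusted p = 0.0394) and in edgeR without warm wild-type replicate 1 (0.44, adjusted p = 0.0207). In knockouts, the Gpd2 levels of 1186 to 1535 CPM at 22 °C and 1244 to 1514 CPM at 6 °C gave a difference of 0.02 ± 0.13. The RNA A930012O16Rik on the other strand shares 487 exon bases with Gpd2, 7.44% of the exon bases of Gpd2.

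Gpd1 and Gpd2 act on the same pair of metabolites in opposite directions in the glycerol phosphate shuttle. On the deposited scale of RPKM, reads scaled to gene length and library total, Gpd1 stood at 5.97 to 13 times Gpd2 over the 17 libraries. The ratio was 11 ± 1.9 (SD) in warm and 8.6 ± 1.7 in cold wild types, and 9.0 ± 1.5 and 8.3 ± 1.9 in warm and cold knockouts. The ranges of all 4 groups overlapped.

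Gpam encodes the mitochondrial glycerol 3-phosphate acyltransferase, which attaches the fatty acid that starts the assembly, and it rose in both genotypes. The levels were 345, 413, 391 and 364 CPM in warm wild types and 719, 687, 596, 534 and 763 CPM in cold ones. Every cold animal was above every warm one, with the smallest margin in cold replicate 4. The rise was 0.80 ± 0.13 on the log2 scale, 1.74-fold (95% interval 0.53 to 1.07 on the log2 scale, adjusted p = 0.000299, n = 4 and 5, edgeR).

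In knockouts, Gpam went from 383, 331, 345 and 257 CPM at 22 °C to 547, 595, 568 and 488 CPM at 6 °C. No warm knockout reached the lowest cold one, and replicate 4 was the lowest in both groups. The rise was 0.74 ± 0.13, 1.67-fold (adjusted p = 0.000935, n = 4 and 4, edgeR). It was 0.62 without the 2 libraries of highest mitochondrial share (adjusted p = 0.00596). A test against a minimum fold of 1.5 did not call Gpam in either genotype (adjusted p = 0.216 in wild types and 0.486 in knockouts).

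RefSeq lists 2 start sites for Gpam on the minus strand of chromosome 19, and their windows are shown because Gpam rose and the windows differ in motif content. They lie at chr19:55127239-55127488 (start 1) and chr19:55099478-55099727 (start 2), GRCm38.p6, each 250 bases read 5′ to 3′. The window of start 2 lies inside the Gpam gene (55067268 to 55127238).
Gpam start 1: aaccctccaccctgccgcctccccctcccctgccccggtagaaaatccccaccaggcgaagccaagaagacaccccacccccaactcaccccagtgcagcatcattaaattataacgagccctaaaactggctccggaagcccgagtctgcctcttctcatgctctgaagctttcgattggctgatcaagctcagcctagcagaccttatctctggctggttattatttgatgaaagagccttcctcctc
Gpam start 2: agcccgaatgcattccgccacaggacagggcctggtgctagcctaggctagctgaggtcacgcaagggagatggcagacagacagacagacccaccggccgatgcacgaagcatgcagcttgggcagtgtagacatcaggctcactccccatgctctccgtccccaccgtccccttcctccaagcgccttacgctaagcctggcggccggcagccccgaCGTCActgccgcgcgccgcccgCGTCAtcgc
The capitals in start 2 mark CGTCA, the other strand of the cAMP response element core TGACG, at 31 to 27 and at 9 to 5 bases before the start. Start 1 held none of the searched motifs. The core was found in 17.8% and the full element in 1.55% of the 32851 windows. The deposited counts are per gene and do not separate the starts. Of the 10 genes, 7 had promoter windows in the table: Gk, Aqp7, Pck1, Gpd2, Gpam, Agpat2 and Lpin1. Among those not printed, Pck1 held CGTCA at 90 to 86 bases before its start, Lpin1 TGTTCT at 163 to 158, and start 2 of Aqp7 AGAACA at 173 to 168.

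Agpat2 encodes an acyltransferase of lysophosphatidic acid, the enzyme of the following step, whose loss causes lipodystrophy. Its levels were 888, 839, 780 and 805 CPM in warm wild types and 488, 622, 653, 944 and 613 CPM in cold ones. In the cold, 4 of the 5 wild types lay below all warm ones, and replicate 4 lay above all of them. The difference of -0.32 ± 0.19 did not pass (95% interval -0.71 to 0.07, adjusted p = 0.214), and it passed without cold replicate 4 (-0.48, adjusted p = 0.0485).

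In knockouts Agpat2 was at 768, 956, 1021 and 982 CPM at 22 °C and at 960, 683, 532 and 1029 CPM at 6 °C. The cold knockouts were spread over both sides of the warm ones, and the difference was -0.22 ± 0.20 (-0.64 to 0.20). Agpat2 shares 64 exon bases with Egfl7 on the other strand, 3.00% of the exon bases of Agpat2.

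Lpin1 encodes lipin 1, the phosphatidate phosphatase that makes diacylglycerol and that also acts with nuclear receptors on transcription. It was at 393, 407, 401 and 380 CPM in warm wild types and at 339, 349, 507, 652 and 441 CPM in cold ones. The warm animals lay close together, with a coefficient of variation of 3.00%, while that of the cold animals was 28.1%. The difference was 0.19 ± 0.16 (95% interval -0.16 to 0.54), or 0.04 without cold replicate 4.

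Knockouts had Lpin1 at 437, 428, 532 and 464 CPM at 22 °C and at 597, 368, 479 and 396 CPM at 6 °C, a difference of -0.04 ± 0.17 (-0.40 to 0.33). Cold wild-type replicate 4 thus had the highest Lpin1 and Agpat2 and the lowest Gk and Gpam of its group. Its mitochondrial share was 47.4%, within the range of the other libraries.

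Diacylglycerol is acylated to triglyceride by 2 unrelated enzymes. Dgat1 encodes an acyltransferase that is known to re-esterify fatty acids released by lipolysis, and Dgat2 encodes the one tied to newly made fatty acids. Dgat2 (chromosome 7, minus strand, 99153658 to 99182719) fell in both genotypes. Warm wild types had Dgat2 at 393, 504, 638 and 595 CPM and cold ones at 283, 295, 250, 248 and 234 CPM. Every cold animal was below every warm one, and the cold animals lay closer together. The fall was -1.02 ± 0.18 on the log2 scale, to 0.493 of the warm level (95% interval -1.41 to -0.63, adjusted p = 0.000785, n = 4 and 5, edgeR).

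Among knockouts Dgat2 went from 436, 872, 792 and 525 CPM at 22 °C to 354, 428, 270 and 403 CPM at 6 °C. The groups did not overlap, but the highest cold knockout and the lowest warm one were nearly level. The fall was -0.83 ± 0.20, to 0.561 of the warm level (adjusted p = 0.00597, n = 4 and 4, edgeR). It was -0.80 without the 2 libraries of highest mitochondrial share (adjusted p = 0.0112). Against a minimum fold of 1.5, Dgat2 was not called (adjusted p = 0.0865 in wild types and 0.441 in knockouts).

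Dgat1 was at 97.7, 101.2, 108 and 101.1 CPM in warm wild types and at 139, 118, 103, 104 and 123 CPM in cold ones. The groups overlapped, and the difference of 0.21 ± 0.14 did not pass (95% interval -0.09 to 0.50, adjusted p = 0.293). In knockouts Dgat1 was at 91.1, 85.5, 88.3 and 72.9 CPM at 22 °C and at 118, 142, 91.0 and 161 CPM at 6 °C. Of the cold knockouts 3 lay above all warm ones, and replicate 3 was level with the highest warm knockout.

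The Dgat1 rise in knockouts was 0.60 ± 0.15, 1.52-fold (95% interval 0.29 to 0.91 on the log2 scale, adjusted p = 0.00777, n = 4 and 4, edgeR). It did not pass when libraries were scaled by their total counts (0.54, adjusted p = 0.0568) or with limma on log2(RPKM + 1), where it was 0.49 (adjusted p = 0.084). The Dgat1 cold responses of knockouts and wild types differed by 0.40 (95% interval -0.03 to 0.82, adjusted p = 1, edgeR), which did not pass. A rise called in knockouts and not in wild types is therefore not shown to differ between them.

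**Figure D2:**
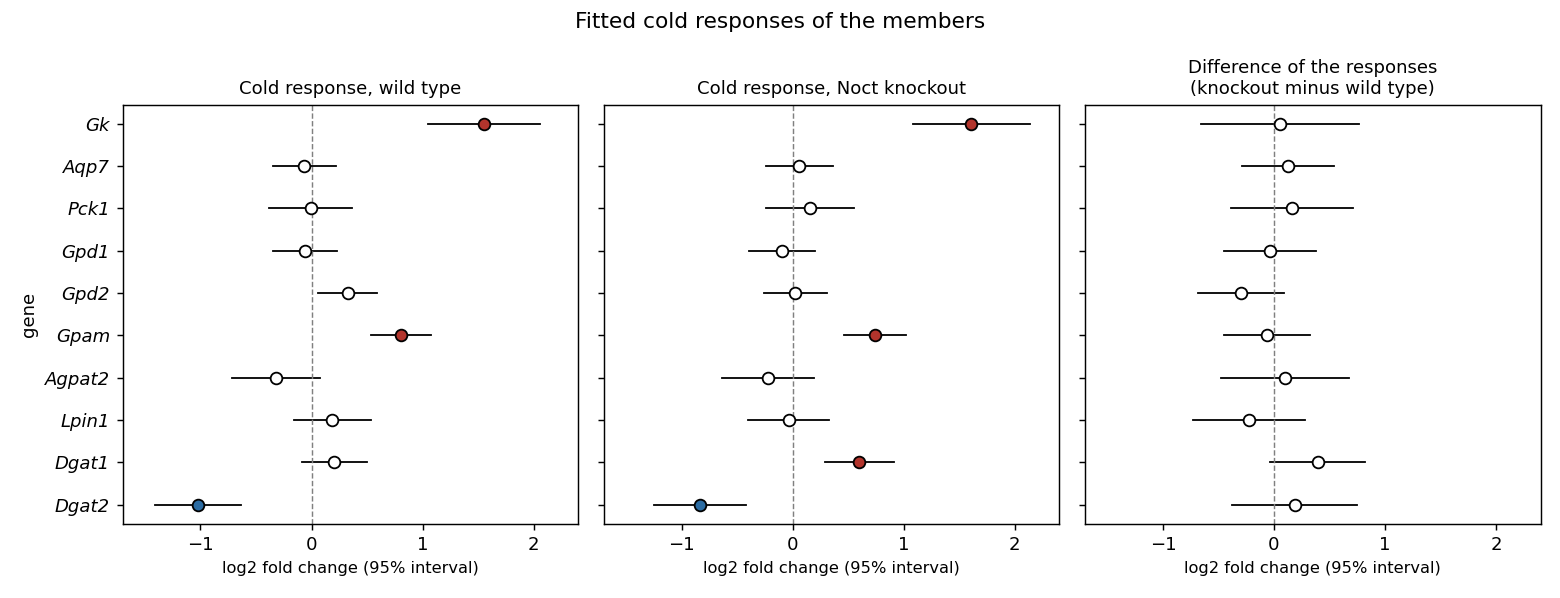
Fitted log2 fold changes (6 °C against 22 °C) of the 10 genes with 95% intervals in wild types and in knockouts, and the difference of the responses (knockout minus wild type). Red marks genes that rose, blue genes that fell and white genes that did not pass. No interval of the difference lies clear of 0.

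Because the counts of both genes were scaled to length in the deposited RPKM table, the balance of Dgat2 to Dgat1 could be read within each library. The ratio of Dgat2 to Dgat1 RPKM was 3.98, 4.93, 5.88 and 5.82 in warm wild types and 2.02, 2.48, 2.4, 2.36 and 1.88 in cold ones. In knockouts it was 4.74, 10.1, 8.89 and 7.14 at 22 °C and 2.98, 2.98, 2.94 and 2.48 at 6 °C. The temperatures did not overlap in either genotype, and Dgat2 stayed the more abundant transcript per length in every library. The group means were 5.15 ± 0.89 (SD) and 2.23 ± 0.26 in warm and cold wild types, and 7.71 ± 2.33 and 2.84 ± 0.24 in warm and cold knockouts. Every cold knockout lay above every cold wild type, by a narrow margin (2.479 in the lowest knockout and 2.476 in the highest wild type). These ratios were not adjusted for sex, and the cold knockouts were mostly male and the cold wild types mostly female. The ratio does not depend on how libraries were scaled. It was chosen with the responses of both genes known and is given with no test. On the RPKM scale Dgat1 had nearly the same mean in warm and cold wild types (37.3 and 37.5), while the mean of Dgat2 went from 193 to 82.6. In knockouts the mean of Dgat1 went from 27.5 to 39.9 RPKM and that of Dgat2 from 211 to 112 RPKM. RPKM uses library totals, and in CPM the wild-type Dgat1 means were 102 and 117.

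**Figure D3:**
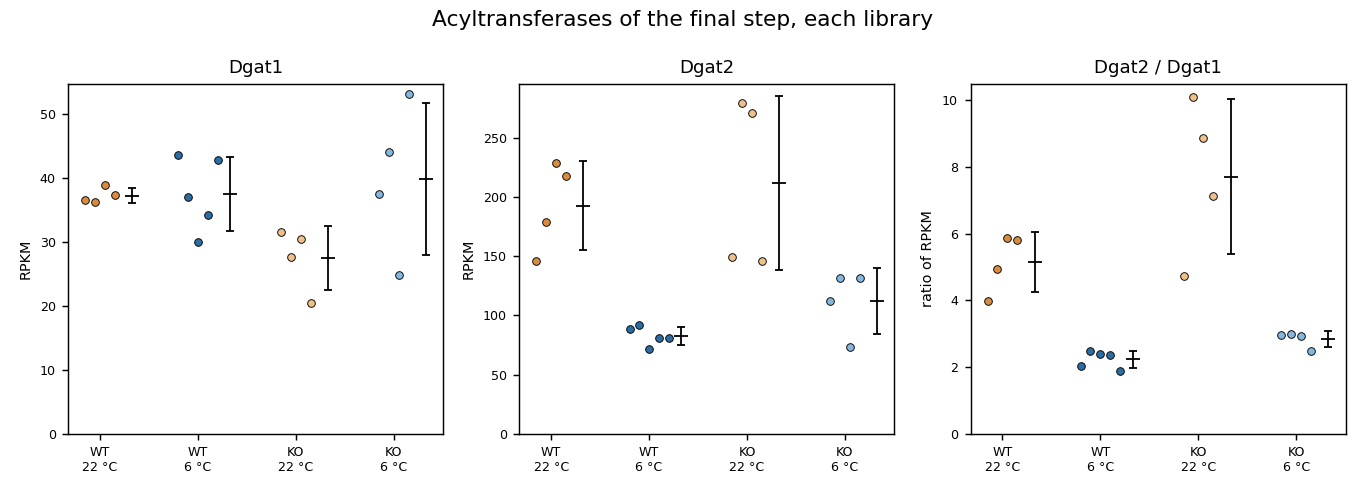
Deposited RPKM of Dgat1 and Dgat2 and the ratio of Dgat2 to Dgat1 in each library, by genotype and temperature, with mean ± SD. The ratio lies between 1.88 and 2.98 in the 9 cold libraries and between 3.98 and 10.1 in the 8 warm ones.

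Noct genotype had no called effect on any of the 10 genes at either temperature. At 22 °C, 0 of 10 passed, where 0.0160% of all tested genes did, and at 6 °C 0 of 10 passed, where 0.0400% did. The difference between the cold responses was called for 0 of 10 genes, against 0.00801% of all tested genes. The number with an unadjusted p below 0.05 was also 0 in each of these 3 comparisons with edgeR. Among all 12486 tested genes that number was 486 at 22 °C, 393 at 6 °C and 310 for the difference of the responses. The 0 of 10 was thus close to the share of all genes. DESeq2 and limma called 0 of 10 as well, where DESeq2 called 10, 12 and 1 genes in all.

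Fitted genotype differences, knockout minus wild type, ran from -0.43 (Gk) to 0.34 (Lpin1) at 22 °C and from -0.38 (Gk) to 0.36 (Dgat2) at 6 °C. For Gk the 95% intervals were -0.98 to 0.11 and -0.93 to 0.18, neither of which reaches the size of the Gk cold response. Lpin1 at 22 °C was 428 to 532 CPM in knockouts and 380 to 407 CPM in wild types, without overlap (0.34 ± 0.19, adjusted p = 0.998, edgeR). Dgat1 at 22 °C was 72.9 to 91.1 CPM in knockouts and 97.7 to 108 CPM in wild types, also without overlap (-0.27 ± 0.16, adjusted p = 0.998, edgeR). The 2 genotypes did not overlap for 4.22% of all tested genes at 22 °C and for 1.04% at 6 °C, where none of the 10 genes was among them.

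Differences of the cold responses ran from -0.30 for Gpd2 (95% interval -0.69 to 0.09) to 0.40 for Dgat1. For the genes that moved in both genotypes the difference was 0.06 for Gk (-0.65 to 0.77), -0.06 for Gpam (-0.45 to 0.32) and 0.19 for Dgat2 (-0.38 to 0.75). A difference that does not pass does not show that the responses were equal.

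The order of the 10 genes by level was read on the RPKM scale, which accounts for gene length. Gpd1 was the most abundant in every group (2179 ± 453 RPKM in warm wild types), followed by Pck1 (754 ± 180) and Agpat2 (435 ± 30.4), which overlapped each other in both knockout groups and in neither wild-type group. Gpd2 (200 ± 37.7) and Dgat2 (193 ± 38.0) came next in warm wild types and overlapped each other. Gpam (110 ± 6.31) was below Dgat2 and above Lpin1 (45.7 ± 0.92), Aqp7 (42.5 ± 3.73), Gk (42.3 ± 11.8) and Dgat1 (37.3 ± 1.19), without overlap on either side. Each of these last 4 genes overlapped its neighbour in the order.

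In the cold, Gk moved from rank 9 to rank 6 in wild types (103 ± 27.9 RPKM) and to rank 7 in knockouts (92.1 ± 24.3 RPKM). Dgat2 went from rank 5 to 7 in wild types (82.6 ± 7.71 RPKM) and from 4 to 6 in knockouts (112 ± 27.7 RPKM). The libraries of Gk and Dgat2 thus overlapped in both genotypes at 6 °C, while they were apart at 22 °C. The gene lengths implied by the deposited RPKM equal the GENCODE vM21 exon lengths for 8 of the 10 genes. For Gpam the implied length is 3832 bases against 6664 exon bases, so with the longer length its RPKM would be lower by a factor of 1.74. With GENCODE lengths, cold Gpam averaged 96.7 RPKM in wild types and 77.4 in knockouts, below Gk, which was then at rank 5 and rank 6, and cold knockout Dgat2 was at rank 5. The ranks of Gk and Dgat2 at 22 °C did not change.

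**Figure D4:**
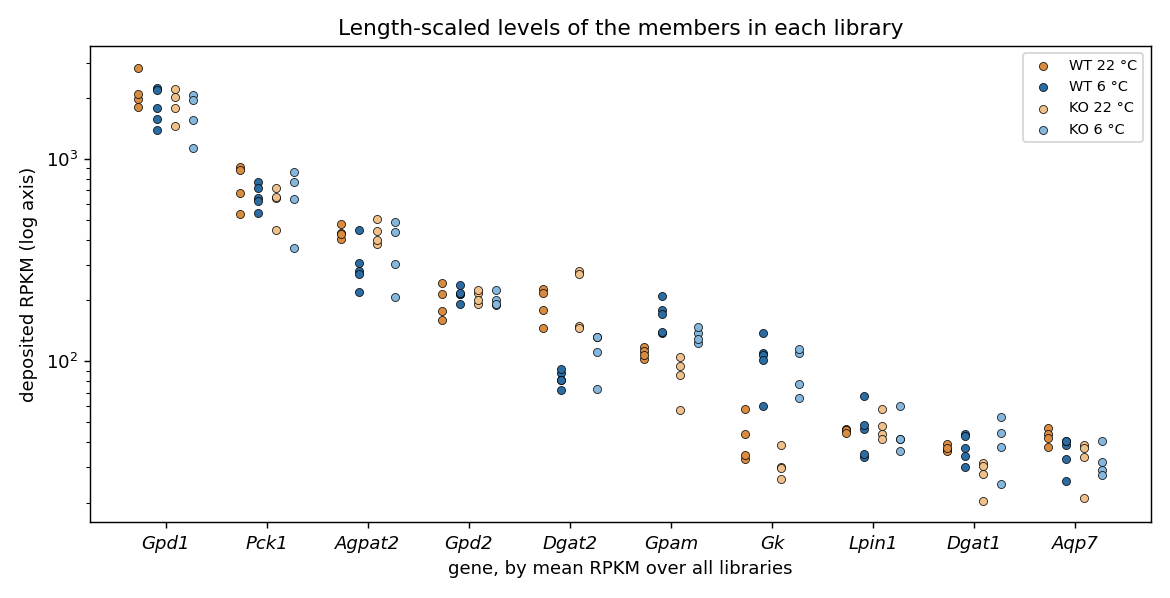
Deposited RPKM of the 10 genes in each library on a log axis, ordered by the mean over all libraries, with colours for genotype and temperature. Gpd1 lies highest in every group, and the cold libraries of Gk reach the level to which those of Dgat2 fall.

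Over the 17 libraries, the genes whose pattern was most like Gk, by the root mean square difference of centred log2 CPM among 7961 genes, were Hspa8 (0.22), Cpeb4 (0.24) and Eif1a (0.26). Their cold responses were 1.56, 1.32 and 1.70 on the log2 scale in wild types and 1.51, 1.55 and 1.35 in knockouts. For Dgat2 they were Popdc2 (0.22), Marveld1 (0.26) and Hyal1 (0.26), with cold responses of -1.15, -0.91 and -1.03 in wild types. Likeness here is a description, since the libraries share genotype and temperature groups.

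Beyond the 10 genes, 51 further genes of the pathway and its branches were listed, and 46 were tested. In wild types 12 rose and 7 fell in the cold, 41.3% of those tested where 27.6% of all tested genes were called, with a median of 0.10 on the log2 scale against -0.03 for all. In knockouts 9 rose and 4 fell, 28.3% where 21.6% of all tested genes were called, with a median of 0.05 against -0.02 for all. By direction, the shares of all tested genes were 14.3% higher and 13.3% lower in wild types and 11.6% higher and 10.0% lower in knockouts. In both genotype comparisons and in the difference of the responses, 0 of 46 were called with edgeR.

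Of 6 tested genes that also serve glycerol phosphate supply, 0 rose and 2 fell, Gk5 and Gpd1l, in each genotype, with medians of -0.12 in wild types and -0.26 in knockouts. Gk5 encodes a glycerol kinase-like protein and went from 4.50 to 7.47 CPM in warm wild types to 2.98 to 4.48 CPM in cold ones (-0.85 ± 0.17, adjusted p = 0.00167, edgeR), and its knockout response was -0.85 ± 0.18. The direction of Gk5 was thus opposite to that of Gk. Gpd1l, a relative of Gpd1, went from 26 to 35.3 CPM in warm wild types to 16.6 to 21.7 CPM in cold ones (-0.73 ± 0.11, adjusted p = 0.000181, edgeR) and fell by 0.58 on the log2 scale in knockouts.

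Of 14 other tested acyltransferases, lipins and lipid phosphatases, 5 rose and 0 fell in each genotype, with medians of 0.05 and 0.08. Gpat4, the glycerol 3-phosphate acyltransferase of the endoplasmic reticulum, was at 317 to 378 CPM in warm and 402 to 548 CPM in cold wild types (0.48 ± 0.11, adjusted p = 0.00564, edgeR). In knockouts it rose by 0.67 ± 0.12 (adjusted p = 0.000954). Plpp1, a lipid phosphate phosphatase, rose by 0.89 ± 0.12 and 0.78 ± 0.13 in wild types and knockouts, from 7.44 to 10.9 CPM in warm wild types, with no overlap between temperatures in either genotype. Lpin3 rose in wild types (0.79 ± 0.21, adjusted p = 0.0105, edgeR) and Gpat3 in knockouts (0.69 ± 0.18, adjusted p = 0.0118, edgeR), and neither response was shown to be particular to its genotype. Lpin3 did not pass in the majority sex alone (0.67, adjusted p = 0.0743), nor Gpat3 without the 2 libraries of highest mitochondrial share (0.60, adjusted p = 0.0524).

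Of 9 tested acyl-CoA synthetases, 3 rose and 1 fell in wild types and 1 rose and 0 fell in knockouts, with medians of 0.36 and 0.24. Acsl3 went from 49.6 to 63.2 CPM in warm wild types to 81.8 to 92.1 CPM in cold ones (0.69 ± 0.13, adjusted p = 0.00089, edgeR), and Slc27a1, a fatty acid transporter with synthetase activity, from 87.1 to 134 CPM to 51.2 to 70.1 CPM (-0.96 ± 0.24, adjusted p = 0.00687). Neither was called in knockouts, where warm and cold animals overlapped. Acsl3 was at 43.5 to 72.3 CPM in warm and 57.8 to 72.0 CPM in cold knockouts, and Slc27a1 at 57.0 to 102 and 29.3 to 103 CPM. The responses of these 2 genes were not shown to differ between the genotypes. Of 5 tested partners of lipin and of droplet formation, 1 rose and 1 fell in wild types (median 0.08), and 1 rose in knockouts (median 0.03), Fitm2, which binds diacylglycerol and triglyceride at the endoplasmic reticulum (0.57 ± 0.13, adjusted p = 0.00408, edgeR).

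In the phospholipid branch of 12 tested genes, 3 rose and 3 fell in wild types and 2 rose and 2 fell in knockouts, with medians of 0.11 and 0.05. Cept1, a choline and ethanolamine phosphotransferase that uses diacylglycerol, rose by 0.40 ± 0.08 in wild types and 0.32 ± 0.09 in knockouts (adjusted p = 0.00212 and 0.014, edgeR). With total-count scaling Cept1 did not pass in either genotype (0.20 and 0.25, adjusted p = 0.127 and 0.0902). Dgkz, a diacylglycerol kinase, fell in wild types from 7.47 to 9.30 CPM to 3.10 to 6.24 CPM (-0.82 ± 0.16, adjusted p = 0.00135, edgeR). Further calls of these lists lay near the threshold. Those of Plpp3, Lclat1, Fitm2, Acss1, Acsl4, Dgka and Tmem159 in wild types and of Acsl1, Selenoi, Dgkz, Lclat1 and Cds2 in knockouts each ended when any of 1 to 12 single libraries was left out, with adjusted p of up to 0.208.

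Known transcriptional regulators of the pathway were listed as well, of which 12 were tested. In wild types 2 rose and 2 fell, where 27.6% of all tested genes were called. In knockouts 1 rose and 2 fell, where 21.6% of all tested genes were called. The medians of the 12 regulators were -0.007 and -0.02 on the log2 scale. The list thus had no shared direction, while single regulators moved strongly up or down. Ppargc1a, a coactivator of thermogenic genes, was at 116, 493, 115 and 92.4 CPM in warm wild types and at 933 to 1430 CPM in cold ones (2.86 ± 0.35, adjusted p = 3.96e-05, edgeR). The warm animal with the high Ppargc1a, replicate 2, also had the highest Gk and Gpam of its group. Without it the wild-type rise of Ppargc1a was 3.40 on the log2 scale (adjusted p = 7.32e-07), and that of Gpam was 0.87 (adjusted p = 0.000597).

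Srebf1, the regulator of fatty acid synthesis, was at 61.2 to 88.8 CPM in warm and 11.6 to 26.1 CPM in cold wild types (-2.16 ± 0.31, adjusted p = 0.000135, edgeR). Cebpa, an adipocyte transcription factor, went from 217 to 298 CPM to 39.9 to 79.9 CPM (-2.03 ± 0.28, adjusted p = 0.000101). In knockouts the responses were 3.37 ± 0.35 for Ppargc1a, -1.96 ± 0.33 for Srebf1 and -1.34 ± 0.30 for Cebpa. Pparg, the receptor that drives adipocyte differentiation, rose in wild types by 0.47 ± 0.12 (adjusted p = 0.00913, edgeR) and did not pass with total-count scaling (0.26, adjusted p = 0.0681). Pparg was not called in knockouts, and the difference of its responses did not pass.

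**Figure D5:**
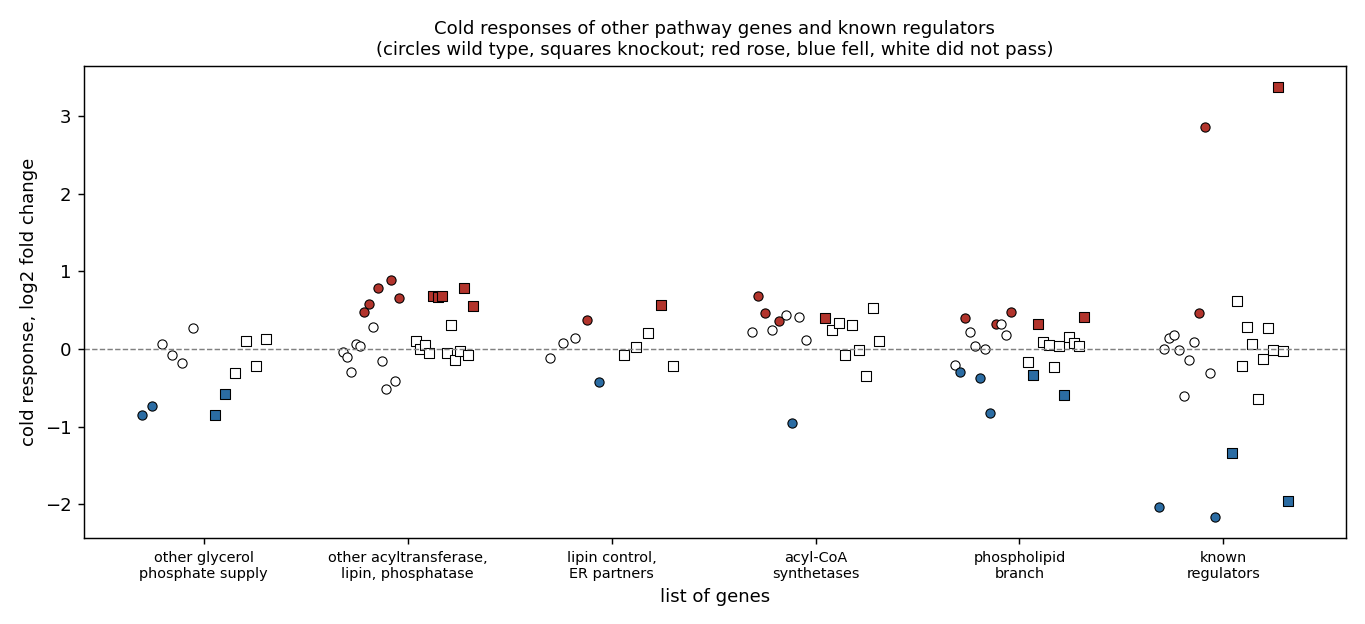
Cold responses (log2 fold change, 6 °C against 22 °C) of other genes of the pathway and of its known regulators, by list, with circles for wild types and squares for knockouts. Red points rose, blue points fell and white points did not pass, and the regulators Ppargc1a, Srebf1 and Cebpa lie farthest from 0.

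Some markers of other cell types also moved with temperature. Calls in these lists stand beside 27.6% of all tested genes called in wild types and 21.6% in knockouts. The summed nerve markers were 60.7 to 74.7 CPM in warm and 97.5 to 138 CPM in cold wild types, and 57.1 to 61.0 and 74.4 to 134 CPM in knockouts. Of 5 tested nerve markers, Pmp22 rose in both genotypes (1.14 and 1.31 on the log2 scale) and Sox10 fell in wild types, while Th and Dbh were below the filter. The median of the 5 was -0.05 on the log2 scale in wild types and -0.05 in knockouts. The higher sum was thus not a rise of the list as a whole. Among 8 genes listed as endothelial markers 2 rose and 1 fell in each genotype. Their sums were 4008 to 4636 and 4205 to 5098 CPM in warm and cold wild types. In warm and cold knockouts the sums were 4517 to 5930 and 4470 to 5848 CPM. This list includes Fabp4, which adipocytes also express, so the sums do not measure endothelial cells alone. Of 9 macrophage markers 1, Cd163, rose in each genotype, with sums of 55.1 to 78.1 and 52.8 to 77.1 CPM in warm and cold wild types and of 49.4 to 55.9 and 57.0 to 97.4 CPM in warm and cold knockouts. Of 7 tested white adipocyte markers 1, Lep, fell in each genotype. None of 12 muscle markers, 7 fibroblast markers and 1 tested red cell marker was called in either cold response. Of the 9 brown adipocyte markers, Ucp1 and Elovl3 rose in both genotypes, while Ebf2, Zic1 and Lhx8 fell in both and Prdm16 fell in wild types. Their part in the responses of the 10 genes was not tested.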

How the data were processed

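Brown fat mRNA of 17 mice was analysed from gene-level tables. The authors aligned and counted with STAR and HTSeq (builds named: mm10, GRCm38.p6), per the submitters' processing notes, where versions, annotation and strand use are missing. Raw counts by gene symbol make up the deposited table that was tested. The deposited RPKM table holds, as checked on the values, those counts scaled to length and column total, and was used for levels between genes. No column was left unassigned (0).

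Counts were fitted with edgeR 4.0.16 in R 4.3.3: filterByExpr (12486 of 21982 genes), TMM scaling, and 1 quasi-likelihood model over all 17 libraries with 4 group means plus sex as labelled (12 residual degrees of freedom), because sex is unequal between genotypes. P-values were adjusted by Benjamini-Hochberg over every tested gene (threshold 0.05). Log2 fold changes are given ± SE, with 95% intervals, and CPM uses TMM-scaled library sizes. The procedure was tested on simulated data.

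The 10 members, the lists, the naming rule and the tests were chosen with earlier results of these data known, so counts are read against all tested genes and no list was tested. The naming rule took all 10 members, Noct, up to 4 passing genes per further list and comparison, the 3 genes most like Gk and Dgat2 among genes of at least 5 CPM (log2 with a prior count of 2), and the brown adipocyte markers. Not every gene it took is described. Replicates are separate animals. Alternatives were other scaling and filters, DESeq2 1.42.0, limma 3.58.1 on log2 RPKM, other covariates, a replicate block, subsets of libraries, and a minimum fold of 1.5. Promoter sequences came from RefSeq, and positions and exon overlaps from GENCODE vM21.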

Additional observations from a re-analysis of the deposited data

Results flagged for a closer look

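Each gene's level in each group was checked for a single animal far from the rest, 40 checks in all, and 1 stood out. In knockouts at 22 °C, Gk in replicate 4 was 350 CPM, while the other 3 animals lay between 207 and 220 CPM, and the gap was 0.904 of the range of the group. The same library had the highest mitochondrial share, 57.3%. Its skeletal muscle, brown adipocyte and endothelial marker sums (850, 7691 and 5930 CPM) were also the highest of its group. A link of these values to Gk was not tested. Without this library the knockout Gk rise was 1.77 on the log2 scale (adjusted p = 0.000495, edgeR). A check of this kind picks out about 5% of groups by chance.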

How the results depend on the processing

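The direction and call of Gk in both cold responses held in all 33 alternatives, with log2 fold changes of 1.28 to 1.69 in wild types and 1.45 to 1.77 in knockouts. A test against a fold of 1.5 (glmTreat), which asks for more than a change, left 1 of the 10 genes, Gk, in wild types and 1, Gk, in knockouts, with 381 and 340 genes called in all. Of the named pathway genes and regulators it called Ppargc1a and Srebf1 in both genotypes and Cebpa in wild types. Leaving out single libraries gave 3 to 4 called genes of the 10 in wild types, 4 to 4 in knockouts and 0 to 0 in the other comparisons. Genes called in all were then 2605 to 3872 in wild types and 1961 to 2834 in knockouts. They were 1 to 3 and 3 to 5 for genotype at 22 and 6 °C, and 1 for the difference of responses. Agpat2 in wild types passed without cold replicate 4 (-0.48) and Gpd2 without warm replicate 1 (0.44).

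No label states that replicate numbers mark pairs. Of 16 same-numbered pairs, 6 had correlated deviations above 0.1 (range -0.42 to 0.44). With so few animals per group, these values cannot decide whether same-numbered animals shared a litter or day. With the replicate block and sex, 3 and 4 of the 10 genes were called in the cold responses and 0 in the other comparisons, as without the block. Genes called in all were 2609 and 2220 in the cold responses. They were 0 and 4 for genotype at 22 and 6 °C and 1 for the difference of responses. Total-count scaling, chosen after seeing the data, shifted the all-gene median from -0.03 to -0.23 in wild types, from 0.00 to -0.15 for genotype at 22 °C and from 0.00 to 0.13 for the difference of responses, and from -0.02 to -0.09 in knockouts. Under it 3 of the 10 genes were called in each cold response, because Dgat1 in knockouts did not pass, with 3733 and 2366 genes called in all. For the 10 genes, limma on log2 RPKM gave the same counts at both pseudocounts (1 and 0.1). Genes called in all with limma were 3996 and 2362 at a pseudocount of 1, and 3813 and 2384 at 0.1. In knockouts, genes called in all were 2697 in the main analysis, 1589 with only the groups compared and 1647 with the majority sex, with 4 of the 10 called each time. DESeq2 called 10 and 12 genes for genotype at 22 and 6 °C against 2 and 5 with edgeR, none of them among the 10. The majority-sex fit has no genotype or difference value, and the fit on compared groups has no difference value. No fit at reduced depth was run. The order by level with GENCODE lengths was added after seeing the data.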
